A study of Mus musculus with 12 samples.

Results

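The genes described here are 8 long RNAs of mouse embryonic stem cells, taken by symbol from the gene count files: the nuclear RNAs Malat1, Neat1 and Tug1, the snoRNA host genes Gas5, Snhg1, Snhg3 and Snhg12, and the stem cell RNA Lncenc1. They are 8 of 52535 gene entries in each file, and 7 of them had enough counts to be tested, Snhg3 being the exception. The cells were E14, a mouse embryonic stem cell line, and all groups grew in one medium with serum, LIF and 2i, a pair of kinase inhibitors that hold such cells in the naive state. The first group, KO2, was 2 libraries of clone 2 of a Bcat1 knockout, the second, KO1, was 2 libraries of clone 1, and the last, WT, was 2 libraries of wild type E14 cells. Bcat1 is the cytosolic aminotransferase of leucine, isoleucine and valine, and the study asked about its role in stem cell self-renewal. RNA was total RNA depleted of ribosomal RNA, so transcripts without a poly(A) tail could enter the libraries. The 6 time-course samples of the series are not analysed here.

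Each clone is 1 line, so the 4 libraries labelled knockout stand for 2 clones, and the labels do not say that replicates were separate cultures. The p-values of the comparisons of single clones reflect library-to-library spread alone, and that spread may be technical. Where both clones are fitted as 1 genotype, the difference between clones also enters the spread. In bulk RNA, a change in the share of cells of a kind and a change in RNA per cell cannot be told apart. Bcat1 itself had 583 and 579 CPM (counts scaled to a common library size) in KO2, 617 and 662 in KO1, and 602 and 614 in WT, so its RNA level does not check the label, and both clones stand as libraries labelled knockout. Gene counts totalled 11976149 to 13923262 per library. Of the markers of stem cells, all 5 were abundant, with summed levels of 3248 to 3264 CPM in KO2, 3078 to 3265 CPM in KO1 and 3361 to 3551 CPM in WT. The 9 markers of fibroblasts or feeder cells summed to 20.72 to 21.03 CPM in KO2, 32.1 to 33.5 CPM in KO1 and 23.7 to 23.9 CPM in WT, and Dcn, Lum, Postn and Acta2 had 0 counts in all libraries. Most of each sum was Pdgfrb alone, with means of 17.4 CPM in KO2, 24.3 in KO1 and 19.9 in WT. The 2 libraries of KO1 differed most from each other, with a chi-square per gene of 8.79 against 3.27 in KO2 and 3.57 in WT.

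Long RNAs of this kind are made by RNA polymerase II and are studied for what they do as RNAs. Malat1 gathers in nuclear speckles, where splicing factors are stored. Neat1 is the scaffold of paraspeckles, and only its long isoform builds them. Tug1 is found in the nucleus and the cytoplasm and is linked to the silencing complex PRC2. The snoRNA hosts carry small nucleolar RNAs in their introns, which are cut out and guide the chemical modification of ribosomal RNA. Their spliced exons are in many cases unstable and are removed by nonsense-mediated decay, and several start with a run of pyrimidines, the 5′ terminal oligopyrimidine (TOP) sequence of genes of the translation machinery. Lncenc1 is a nuclear RNA of naive mouse embryonic stem cells that binds the splicing regulators Ptbp1 and Hnrnpk and is linked to glycolysis.

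The start windows of the 4 hosts are shown because their class is known for its pyrimidine start. They are RefSeq promoter sequences on GRCm38.p6, with 30 bases before the annotated start and 40 after it, and 7 of the 8 genes had an entry (Gas5 had a pair, and Neat1 had none). Capitals mark the longest run of C or T that touches the stretch of 10 bases before to 20 bases after the start, read on the strand of the gene only.
Gas5, chr1:161034571-161034640, plus strand: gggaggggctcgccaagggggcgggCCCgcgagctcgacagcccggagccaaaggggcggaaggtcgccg
Gas5, chr1:161035136-161035205, plus strand: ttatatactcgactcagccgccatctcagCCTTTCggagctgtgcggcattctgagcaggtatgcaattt
Snhg1, chr19:8723457-8723526, plus strand: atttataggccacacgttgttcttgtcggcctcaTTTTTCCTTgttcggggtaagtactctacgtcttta
Snhg3, chr4:132353647-132353716, minus strand: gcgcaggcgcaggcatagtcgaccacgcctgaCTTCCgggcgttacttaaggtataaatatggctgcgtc
Snhg12, chr4:132308648-132308717, plus strand: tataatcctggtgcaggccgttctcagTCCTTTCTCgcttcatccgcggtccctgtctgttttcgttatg

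The run was 9 bases in Snhg1 and 9 in Snhg12, and 11.6% of 32851 RefSeq promoter windows held a run of that length or longer. At Gas5 the downstream start had a run of 6 bases, a length reached in 36.3% of windows, and the upstream start a run of 3. At Snhg3 the run was 5 bases, a length reached in 54.6% of windows. The longest run of the 7 genes was not in a host but in Lncenc1, at 10 bases, a length reached in 8.41% of windows. It began 18 bases after the start, while the run of Snhg1 began 4 bases after it and that of Snhg12 3 bases before it. The runs of Malat1 and Tug1 were 4 and 5 bases. Lengths and shares take no account of where in the searched stretch a run lies. Such matches describe the letters only.

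Both Malat1 and Neat1 are known for unusual ends, and the gene counts do not separate the isoforms of Neat1. The last 60 bases of the GENCODE M21 transcripts on GRCm38 are shown for that reason, with the polyadenylation signal AATAAA in capitals where the last 50 bases held it.
Neat1-201, chr19:5824708-5824767, minus strand, long isoform: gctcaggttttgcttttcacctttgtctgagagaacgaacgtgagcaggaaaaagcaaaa
Neat1-202, chr19:5842307-5842366, minus strand, short isoform: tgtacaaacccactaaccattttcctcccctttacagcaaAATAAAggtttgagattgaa
Malat1-201, chr19:5795690-5795749, minus strand: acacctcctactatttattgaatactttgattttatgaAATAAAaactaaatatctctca

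The short isoform of Neat1 is 3004 bases long and held the signal, while the long isoform of 20771 bases ended without it, and the annotated Malat1 transcript of 6983 bases held it. Of 9100 lincRNA transcripts, 30.6% held the signal in the last 50 bases. The short isoform lies within the long one at its 5′ end, so a read there can come from either.

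The level of each gene per length is given first, as CPM per kilobase of merged exons. Merging the transcripts joins the exons of Snhg1 and of Snhg12 into 1 stretch over the whole gene, 2969 and 2402 bases. Bases that are intron in some transcripts of these hosts may thus count as length, so their places also depend on the length used. Lncenc1 stood highest in every library, at 78.0 ± 2.30 in KO2, 53.0 ± 6.41 in KO1 and 55.3 ± 3.04 in WT (SD, n = 2 each). Malat1 came next, at 28.0 ± 3.86 in KO2, 27.7 ± 0.23 in KO1 and 21.6 ± 3.03 in WT. Snhg1 followed, with 22.6 ± 0.04 in KO2, 14.02 ± 1.58 in KO1 and 19.1 ± 1.27 in WT. By merged exons the order of these 3 was the same in all 6 libraries, but by the longest transcript it was not. Over all libraries the range of Malat1, 19.4 to 30.7, overlapped that of Snhg1, 12.9 to 22.6.

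Snhg12 and Tug1 changed places. Snhg12 had 13.6 ± 3.19 in KO2, 7.87 ± 1.97 in KO1 and 14.004 ± 1.59 in WT, and Tug1 had 10.7 ± 0.73 in KO2, 8.19 ± 0.90 in KO1 and 9.88 ± 0.41 in WT. Snhg12 was above Tug1 in all libraries but KO1 replicate 1, and in KO1 the 2 genes did not differ beyond their spread. Gas5 was sixth, at 5.48 to 9.15 over the libraries, and Neat1 seventh, at 4.17 to 6.03. Neat1 has the longest exon of the 8, so its place is lower per length than by CPM. Its length here, 20771 bases, is that of the long isoform. The counts do not separate that isoform from the short one of 3004 bases, so the place of Neat1 depends on the length used. Among all genes, Malat1 ranked from 937 to 1715 by CPM, Lncenc1 from 698 to 1284 and Gas5 from 5761 to 7383.

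**Figure D1:**
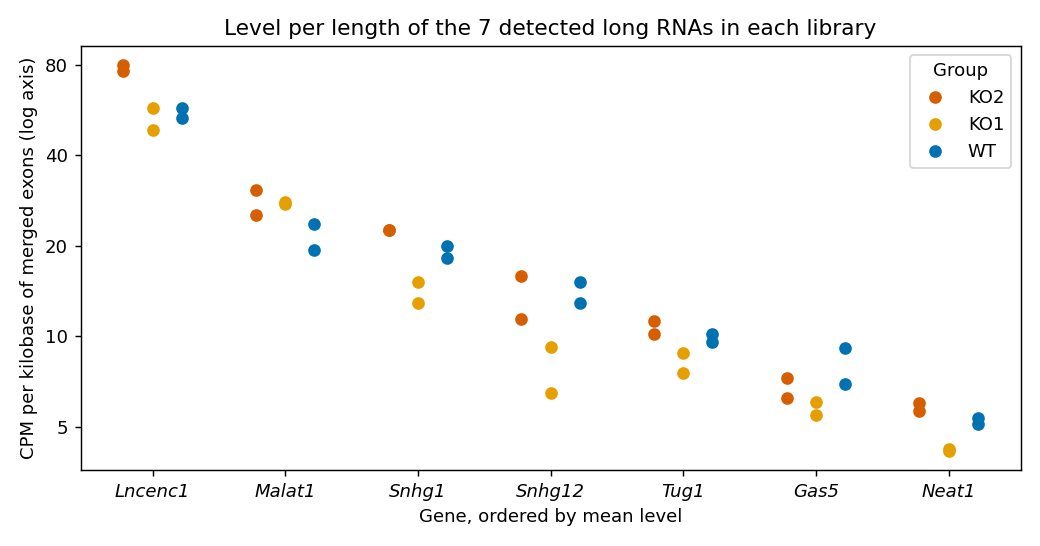
Level per length of the 7 detected genes, in CPM per kilobase of merged exons on a log axis, with 1 point per library in the order KO2, KO1 and WT. Lncenc1 lies above all others in every library, and Neat1, divided by the 20771 bases of its long isoform, lies lowest, at 4.17 to 6.03.

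Malat1 was higher than WT in each clone. It had 177 and 215 CPM in KO2, 192 and 195 CPM in KO1, and 166 and 136 CPM in WT. All 4 libraries labelled knockout were above both WT libraries, and the gap was smallest between KO2 replicate 1 and WT replicate 1. The log2 fold change was 0.38 ± 0.10 (SE) in KO2 against WT, with an adjusted p of 0.0181, and 0.36 ± 0.10 in KO1 against WT, with an adjusted p of 0.0192 (edgeR's quasi-likelihood test, Benjamini-Hochberg adjustment over all 14946 genes tested). The clones differed by 0.02 ± 0.10, with an adjusted p of 0.947. With both clones as 1 genotype, the log2 fold change was 0.37 ± 0.11, with an adjusted p of 0.0759, which did not pass. These calls rest on single libraries: without WT replicate 2 the adjusted p was 0.266 for KO2 and 0.284 for KO1, and without KO2 replicate 2 it was 0.302 for KO2.

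Neat1 and Tug1 both separated the clones. Neat1 had 117 and 125 CPM in KO2, 87.5 and 86.5 CPM in KO1, and 106 and 112 CPM in WT. Its 3 groups did not overlap, with KO1 lowest and KO2 highest. Neat1 was higher in KO2 than in KO1 by 0.48 ± 0.09 on the log2 scale, with an adjusted p of 0.00118, and lower in KO1 than in WT, at -0.32 ± 0.09, with an adjusted p of 0.0128. Against WT, KO2 stood at 0.16 ± 0.09, with an adjusted p of 0.236. The fall in KO1 did not pass without WT replicate 1 (adjusted p = 0.0563) or without WT replicate 2 (0.123). The ratio of Neat1 to Malat1 counts was 0.663 and 0.584 in KO2, 0.455 and 0.444 in KO1, and 0.640 and 0.824 in WT, so the libraries of KO1 were below all others.

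Tug1 had 109 and 99.3 CPM in KO2, 85.9 and 73.5 CPM in KO1, and 93.4 and 99.0 CPM in WT. Both KO1 libraries were below all 4 others, and KO2 lay just above WT. Tug1 was higher in KO2 than in KO1 by 0.39 ± 0.10 on the log2 scale, with an adjusted p of 0.0131, which became 0.191 without KO2 replicate 1. Against WT the log2 fold change was 0.12 ± 0.10 in KO2, with an adjusted p of 0.456, and -0.27 ± 0.10 in KO1, with an adjusted p of 0.0573. That KO1 value passed without KO1 replicate 1, at -0.39 with an adjusted p of 0.00111. The annotated exons of Tug1 overlap those of Morc2a on the other strand, and 11.6% of its exon bases lie in other genes.

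The host Gas5, an RNA known to build up in cells that stop growing, had the lowest mean CPM of the tested genes in WT. It had 27.4 and 23.5 CPM in KO2, 20.6 and 22.8 CPM in KO1, and 34.4 and 26.1 CPM in WT. KO1 lay below both other groups, and KO2 replicate 1 was above WT replicate 2. Gas5 was lower in KO1 than in WT, at -0.48 ± 0.15 on the log2 scale, with an adjusted p of 0.0260. Without WT replicate 1 the value was -0.27 and the adjusted p 0.335, and DESeq2 gave an adjusted p of 0.0511. In KO2 against WT it was -0.25 ± 0.14, with an adjusted p of 0.260, and between KO2 and KO1 it was 0.23 ± 0.15, with an adjusted p of 0.344.

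Snhg1 lies beside Slc3a2 on chromosome 19. It had 67.0 and 67.1 CPM in KO2, 38.3 and 45.0 CPM in KO1, and 59.4 and 54.1 CPM in WT, with no overlap between the groups. Snhg1 was higher in KO2 than in KO1 by 0.69 ± 0.11 on the log2 scale, with an adjusted p of 3.92e-04. It was lower in KO1 than in WT, at -0.45 ± 0.11 with an adjusted p of 0.00730, which became 0.102 without WT replicate 1. In KO2 against WT it was 0.24 ± 0.11, with an adjusted p of 0.131, and passed at 0.0327 without KO1 replicate 1 and at 0.0324 without KO1 replicate 2.

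Neighbours of Snhg1 were also higher in KO2. Slc3a2, which encodes the heavy chain of the amino acid exchangers that carry branched-chain amino acids, had 404 and 417 CPM in KO2, 294 and 329 CPM in KO1, and 320 and 325 CPM in WT. It was higher in KO2 than in KO1 by 0.40 ± 0.08 on the log2 scale, with an adjusted p of 0.00258, and higher than in WT by 0.35 ± 0.08, with an adjusted p of 0.00553. Stx5a, a syntaxin of the Golgi on the other side of Snhg1, was higher in KO2 than in KO1 by 0.43 ± 0.12, with an adjusted p of 0.0211. Of 28 tested genes within 1 Mb of Snhg1, 24 were above 0 in KO2 against KO1, with a median of 0.22. The part of this stretch in the value of Snhg1 was not tested.

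Snhg12 had 27.4 and 38.2 CPM in KO2, 15.5 and 22.2 CPM in KO1, and 30.9 and 36.3 CPM in WT. KO1 lay below all other libraries, while KO2 and WT overlapped. Snhg12 was higher in KO2 than in KO1 by 0.79 ± 0.18 on the log2 scale, with an adjusted p of 0.00539, and lower in KO1 than in WT, at -0.83 ± 0.17, with an adjusted p of 0.00248. The KO2 to KO1 difference was 0.54 with an adjusted p of 0.108 without KO2 replicate 2, and the fall in KO1 was -0.71 with an adjusted p of 0.0612 without WT replicate 2. In KO2 against WT it was -0.04 ± 0.17, with an adjusted p of 0.914.

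Replicate 1 of each clone was low for Snhg12, below replicate 2 by 0.48 on the log2 scale in KO2 and by 0.51 in KO1, against 0.23 in WT. The same libraries had low shares of ambiguous reads, at 7.62% and 8.49% for replicates 1 and 2 of KO2, 6.96% and 9.10% for KO1, and 8.40% and 8.73% for WT. Counts in genes with merged exons shorter than 1000 bases made up 3.50% and 3.84% in KO2, 3.29% and 3.80% in KO1, and 3.94% and 4.003% in WT. The part of these shares in the Snhg12 values was not tested.

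Snhg3 had 0 counts in all 6 libraries, which allows up to 0.215 to 0.250 CPM by the limit of 3 counts and covers counting error only. In the annotation used, 86.3% of its 986 merged exon bases lie in exons of other genes on either strand, and 29.8% in genes on its own strand. The genes that share exon bases are Rcc1, the exchange factor of Ran, the antisense lincRNA Gm17300 and the snoRNA Snora73a, while Snora73b lies in an intron of Snhg3. Rcc1 had 2240 and 2338 counts in KO2, 2206 and 2602 in KO1, and 2355 and 2602 in WT. Which annotation and strand setting lie behind the deposited counts is unknown here, and the part of shared exons in the 0 of Snhg3 was not tested. The other hosts share less, at 17.8% of exon bases in Gas5, 20.9% in Snhg1 and 19.6% in Snhg12.

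**Figure D2:**
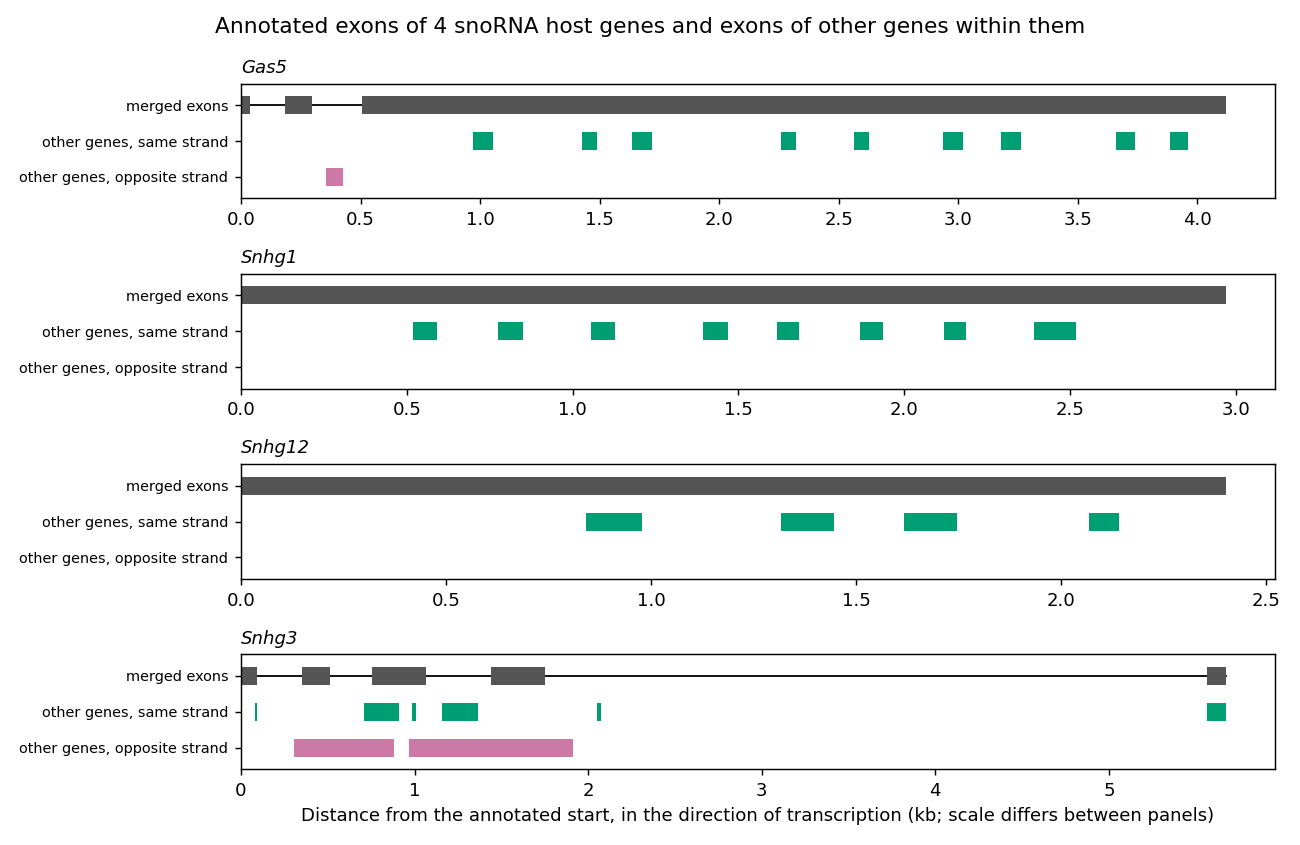
Merged exons of the 4 snoRNA hosts in grey, with exons of other annotated genes on the same strand in green and on the opposite strand in pink, against distance from the annotated start in kb. Of the 4, Snhg3 has the largest shared part, 86.3% of its exon bases.

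The small RNAs nested in the hosts were nearly absent from the counts. Of the 4 snoRNA symbols inside Snhg12, 1 had any count, and none of the 9 small RNA symbols inside Gas5, the 8 inside Snhg1 or the 2 inside Snhg3 had one. The exception was Snora16a, an H/ACA snoRNA, with 19 and 19 counts in KO2, 17 and 29 in KO1, and 33 and 22 in WT. Over all symbols that begin with Snord or Snora, 51 of 138 had any count. In the annotation used, all 10 small RNA entries in Gas5, 8 in Snhg1 and 5 in Snhg12 share bases with host exons. In Snhg3, 1 of 2 does. Reads in shared bases may count for neither gene, so a 0 does not show that a snoRNA was absent. The part of shared exons in these 0 counts was not tested. The counts of the hosts thus give no measure of the snoRNAs made from them. The 136 bases of Snora16a, from GENCODE M21, are shown as the one nested snoRNA seen.
Snora16a, chr4:132309465-132309600, plus strand: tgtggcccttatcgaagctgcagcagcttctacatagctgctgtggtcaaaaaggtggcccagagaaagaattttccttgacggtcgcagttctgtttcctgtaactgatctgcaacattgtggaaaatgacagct

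Lncenc1 was the gene with a rise over WT in clone 2 and none called in clone 1. It had 252 and 263 CPM in KO2, 190 and 160 CPM in KO1, and 190 and 175 CPM in WT. Both KO2 libraries were above all 4 others, and KO1 and WT overlapped. Lncenc1 was higher in KO2 than in WT by 0.50 ± 0.09 on the log2 scale, with an adjusted p of 9.27e-04, and higher than in KO1 by 0.56 ± 0.09, with an adjusted p of 4.86e-04. KO1 stood at -0.06 ± 0.09 against WT, with an adjusted p of 0.682. Both KO2 differences passed under all 14 alternatives, with adjusted p no higher than 0.0379 against WT and 0.00855 against KO1. No annotated exon of another gene overlaps Lncenc1.

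**Figure D3:**
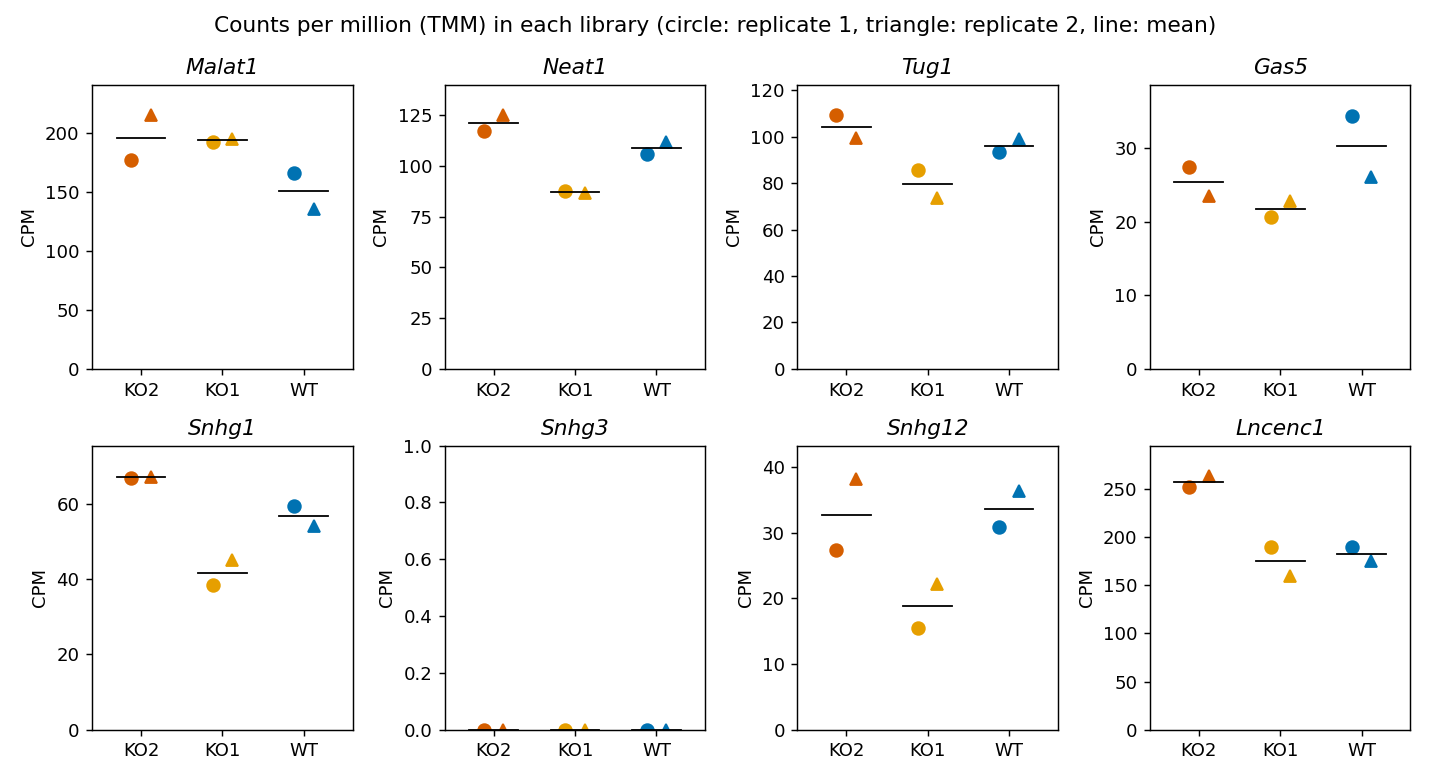
CPM of the 8 genes in each library, with groups KO2, KO1 and WT from left to right, circles for replicate 1, triangles for replicate 2 and a line at the mean of 2 libraries. Both WT libraries are the lowest for Malat1, and both KO1 libraries for Neat1, Tug1, Gas5, Snhg1 and Snhg12, while for Lncenc1 KO1 and WT overlap below KO2. How many of all genes show such orders was not counted, so they carry no background.

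Of the 7 tested genes, 5 were called between the clones and 5 in KO1 against WT. Between the clones, KO2 against KO1, 5 were higher and 0 lower, where 14.3% of all genes tested were called, 6.62% higher and 7.71% lower. The 5 were Neat1, Tug1, Snhg1, Snhg12 and Lncenc1, and the median over the 7 was 0.48 on the log2 scale, beside 0.00 over all genes. In KO1 against WT, 1 was higher and 4 lower, with a background of 21.9% called, 12.4% higher and 9.53% lower, and a median of -0.32. In KO2 against WT, 2 were higher and 0 lower, with a background of 17.9% called, 10.1% higher and 7.81% lower, and a median of 0.16. These last 2 comparisons share the WT libraries.

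With both clones as 1 genotype, 0 of the 7 were called by edgeR's quasi-likelihood test, where 6.36% of all genes were, 4.25% higher and 2.11% lower. Malat1 and Gas5 had an unadjusted p under 0.05 there, 0.00703 and 0.0402. DESeq2 called 1 of the 7, Malat1, with an adjusted p of 0.0304. The share of all genes that DESeq2 called is not given here, so that count has no background beside it. The mean of both clone contrasts, which leaves the difference between clones out of the spread, called 3, Malat1, Gas5 and Snhg12. The genotype fits of Neat1, Tug1 and Snhg1 were all at -0.06, between a lower KO1 and a KO2 above WT.

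**Figure D4:**
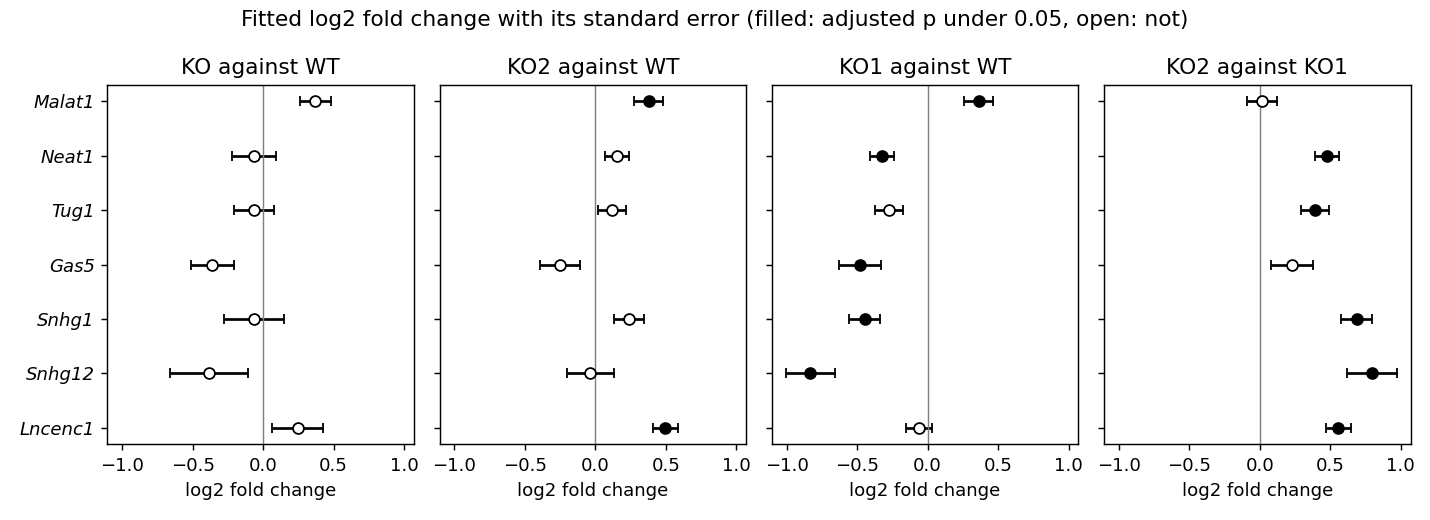
Fitted log2 fold changes with standard errors for the 7 tested genes in 4 comparisons, filled where the adjusted p was under 0.05. In KO2 against KO1, 5 points are filled, all to the right of 0, and in the genotype comparison none is.

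Genes of the same classes were read beside the 8. Of all genes tested, 6.36% were called for the genotype and 14.3% in KO2 against KO1. The shares called against WT were 17.9% in KO2 and 21.9% in KO1. The counts of each list below are to be read beside these shares. Of 12 tested long non-coding snoRNA hosts outside the 8, 1 was higher and 2 lower for the genotype. Snhg11 had 37.5 ± 2.36 CPM in KO2, 51.5 ± 4.30 in KO1 and 13.9 ± 1.65 in WT, a log2 fold change of 1.68 ± 0.19 for the genotype, with an adjusted p of 0.00152. Zfas1, a host beside Znfx1, had 41.7 ± 4.83 CPM in KO2, 31.9 ± 5.81 in KO1 and 63.8 ± 2.12 in WT, at -0.79 ± 0.16 with an adjusted p of 0.0185. Snhg14, the long host beside the imprinted Snrpn gene, had 21.6 ± 1.87 CPM in KO2, 14.5 ± 1.39 in KO1 and 31.4 ± 2.14 in WT, at -0.80 ± 0.20 with an adjusted p of 0.0420.

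Around Zfas1, 19 of 21 tested genes within 1 Mb were below 0 in the genotype comparison, with a median of -0.83, so its value lay near that of its surroundings. In KO1 against WT, 1 of the 12 hosts was higher and 6 lower, with a median of -0.52. In KO2 against WT, 1 was higher and 2 lower, with a median of -0.10. In KO2 against KO1, 4 were higher and 1 lower, with a median of 0.35.

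The protein-coding snoRNA hosts, mostly genes of ribosomal proteins and translation factors that also start with TOP sequences, had 0 of 29 called for the genotype. In KO1 against WT 12 were lower and 0 higher, with a median of -0.24, in KO2 against WT 0 were called, with a median of -0.06, and in KO2 against KO1 8 were higher and 0 lower, with a median of 0.16. Eef1b2, a translation elongation factor, had the smallest p of the list for the genotype and stood at -0.25 ± 0.08, with an adjusted p of 0.0848. It was lower in KO1 than in WT, at -0.31 ± 0.07 with an adjusted p of 0.00522, and stood at -0.19 ± 0.07 in KO2 against WT, with an adjusted p of 0.0738. Its level was 903 ± 30.5 CPM in KO2, 834 ± 8.93 in KO1 and 1031 ± 15.3 in WT.

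Of 17 proteins that bind snoRNAs or assemble their particles, 1 was lower for the genotype, where 6.36% of all genes tested were called. Ruvbl1, an ATPase of the assembly chaperone, had 127 ± 2.16 CPM in KO2, 130 ± 7.65 in KO1 and 161 ± 1.92 in WT, at -0.33 ± 0.08 with an adjusted p of 0.0342. In KO1 against WT 8 of the 17 were lower and in KO2 against WT 2 were, with none higher in either, and the medians were -0.24 and -0.21. Set against KO1, KO2 had 2 higher and 0 lower, with a median of 0.00.

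Of 16 nonsense-mediated decay factors, 0 were called for the genotype. In KO1 against WT 1 was higher and 0 lower, in KO2 against WT 0 were higher and 2 lower, and in KO2 against KO1 0 were called. Magohb, a part of the exon junction complex, had the smallest p for the genotype but few counts, 33 in KO2, 51 in KO1 and 11 in WT, with an adjusted p of 0.0540 for the genotype, 0.0516 in KO2 against WT and 0.00713 in KO1 against WT, where it was higher. The list's medians lay between -0.02 and 0.00 in all comparisons.

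For the bodies that Neat1 and Malat1 belong to, 0 of 17 paraspeckle proteins and 0 of 21 speckle and SR proteins were called for the genotype. Between KO2 and KO1, 4 paraspeckle proteins were higher and 0 lower, with a median of 0.10, and 1 speckle protein was higher, with a median of 0.05. In KO1 against WT, 4 paraspeckle and 5 speckle proteins were lower and 0 higher, and in KO2 against WT 1 paraspeckle protein was higher and 1 lower, and 1 speckle protein was lower. Nono, a core paraspeckle protein, stood at -0.26 ± 0.09 for the genotype with an adjusted p of 0.102. It was lower in KO2 than in WT, at -0.29 ± 0.08 with an adjusted p of 0.0252, and stood at -0.24 ± 0.08 in KO1 against WT, with an adjusted p of 0.0531. Srsf7, a splicing factor, stood at -0.25 ± 0.07 for the genotype, with an adjusted p of 0.0729, and was lower than WT in each clone, at -0.25 ± 0.08, with an adjusted p of 0.0308 in KO2 and 0.0258 in KO1.

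Among 31 other long non-coding RNAs tested, 1 was called for the genotype. It was H19, an imprinted growth-restraining RNA, which had 2.29 ± 0.11 CPM in KO2, 1.64 ± 0.15 in KO1 and 0.45 ± 0.20 in WT, at 2.095 ± 0.48 with an adjusted p of 0.0327. Set against KO1, KO2 had 10 of the 31 higher and 0 lower, with a median of 0.36. In KO2 against WT 10 were higher and 1 lower, with a median of 0.10, and in KO1 against WT 3 were higher and 8 lower, with a median of -0.04.

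Of 17 genes for Lncenc1's binding partners and glycolytic enzymes, 1 was higher and 1 lower for the genotype. Hk2, a hexokinase, had 678 ± 5.73 CPM in KO2, 651 ± 53.1 in KO1 and 529 ± 29.2 in WT, at 0.33 ± 0.08 with an adjusted p of 0.0459. Eno1, an enolase, had 1999 ± 73.5 CPM in KO2, 2039 ± 54.0 in KO1 and 2435 ± 11.2 in WT, at -0.27 ± 0.07 with an adjusted p of 0.0462. In KO2 against KO1, where Lncenc1 was higher, 0 of the 17 were higher and 2 lower, with a median of -0.08.

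Of the 5 stem cell markers, 0 were called for the genotype, with 1 above 0, 4 below and a median of -0.09. Sox2, a pluripotency factor, had the smallest p of them and stood at -0.30 ± 0.09 for the genotype, with an adjusted p of 0.0691. Sox2 was lower than WT in each clone, at -0.28 ± 0.08 in KO2 with an adjusted p of 0.0293 and at -0.32 ± 0.08 in KO1 with an adjusted p of 0.0115. No other of the 5 was called against WT in either clone, and 0 were called in KO2 against KO1. Of 4 tested feeder markers, 1 was called higher for the genotype, Col1a2, with 29 counts in KO2, 37 in KO1 and 1 in WT. Against WT, KO2 had 1 of the 4 higher and 0 lower, with a median of -0.20, KO1 had 2 higher and 0 lower, with a median of 0.81, and in KO2 against KO1 0 were higher and 2 lower, with a median of -0.69. Sox2 and the called feeder markers thus differed between groups beside the 8 genes, and their part in the results was not tested.

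**Figure D5:**
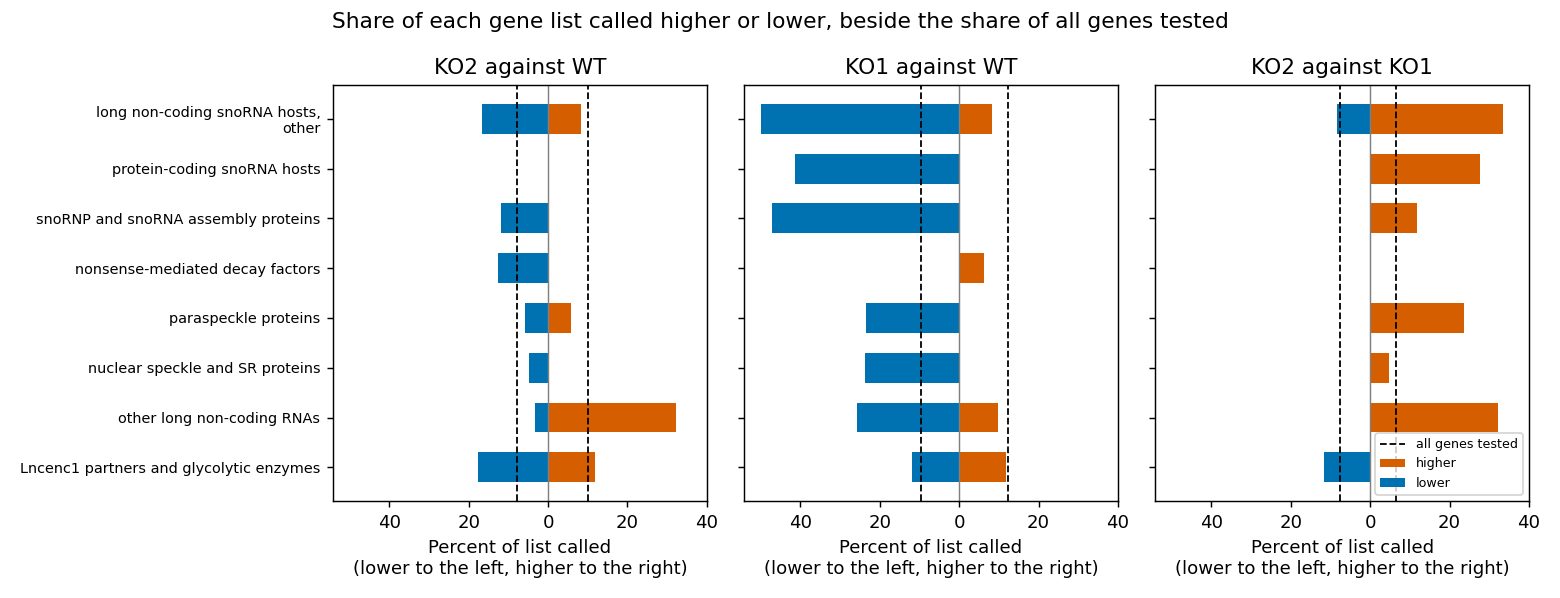
Percent of each list called higher (right) or lower (left) in 3 comparisons, with dashed lines at the shares of all genes tested. Long non-coding and protein-coding snoRNA hosts lie mostly to the left in KO1 against WT and mostly to the right in KO2 against KO1. Both of these comparisons use the KO1 libraries.

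The other neighbours of the 8 genes differed in direction. Of 13 tested genes within 1 Mb of Gas5, 12 were below 0 for the genotype, with a median of -0.28. Trnau1ap, which works in selenocysteine insertion and lies next to Snhg12, was higher in KO1 than in WT, at 0.39 ± 0.13 with an adjusted p of 0.0373, where Snhg12 was lower. Arhgef28, the next tested gene past Lncenc1, and the pseudogene Gm8756, which lies in an intron of Lncenc1 on the opposite strand, were lower in KO2 than in WT, at -1.46 ± 0.46 and -1.01 ± 0.31, with adjusted p of 0.0359 and 0.0334, where Lncenc1 was higher.

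Genes with a pattern most like those of the 2 members with the smallest adjusted p for the genotype were found by Pearson's correlation of log2 CPM over the 6 libraries, as a description. For Malat1 they were Gps1, Klhl2 and Tspan4, with r of 0.991, 0.989 and 0.986, and for Gas5 they were Cdkal1, Carnmt1 and Mrpl49, with r of 0.999, 0.986 and 0.985. The search covered 10634 genes and the points share clones, so values of this size carry no test. Among the 7 members themselves, r was highest for Neat1 with Snhg1, at 0.930, and lowest for Malat1 with Gas5, at -0.496.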

How the data were processed

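The deposited values are whole-number counts of reads per gene in 6 libraries. Tools listed without roles in the submitters' processing notes are HTSeq 0.9.1, HISAT2 2.1.0 and DESeq2 1.18.1, with mm10 as the build. For the annotation, strand setting and filters, the sources used here say nothing. The 5 HTSeq summary entries stayed out of library sizes and tests. Without the strand setting, reads of overlapping or antisense genes cannot be told apart.

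Counts were tested with edgeR 4.0.16 in R 4.3.3: TMM factors, filterByExpr on groups, the quasi-likelihood F test, two-sided, and Benjamini-Hochberg adjustment over 14946 genes at 0.05. Clones were set against WT and each other in 1 fit of 3 groups, and both clones against WT in 1 fit of 2 levels. CPM values use TMM library sizes, and log2 CPM a prior count of 2. Levels per length use merged exons of GENCODE M21, whose assembly GRCm38 is that of mm10. Alternatives were DESeq2 1.42.0, upper-quartile, RLE and protein-coding size factors, no filter beyond 1 count, a replicate block, the mean of the clone contrasts or only the 4 libraries compared, and each library left out. Each fit was tested on simulated data with planted changes, where the share of false calls, averaged over several draws, came out somewhat above the threshold for most comparisons. That average replaced a stricter requirement on single draws, set first, which 1 draw had failed. Figures were drawn with matplotlib 3.10.9.

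Named genes are the 8 members, of each list up to 4 called for the genotype with the smallest p (or the 1 with the smallest p), the nearest tested gene on each side of a member, and the 3 genes most correlated with each of 2 members. A gene that this rule takes is left out of the text. The members and lists were chosen with earlier results of these data known.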

Additional observations from a re-analysis of the deposited data

Results flagged for a closer look

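For 5 genes the difference from WT was not the same in the 2 clones, by the test of KO2 against KO1 itself (edgeR's quasi-likelihood test, Benjamini-Hochberg adjustment over all genes tested). The KO2 minus KO1 difference on the log2 scale was 0.48 for Neat1, 0.39 for Tug1, 0.69 for Snhg1, 0.79 for Snhg12 and 0.56 for Lncenc1. No group had enough libraries for a search for single libraries that stand apart.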

How the results depend on the processing

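Of 392 values of single genes under 14 alternatives in 4 comparisons, 356 kept their direction and their side of the threshold, 11 lost their call, 13 gained one and 12 changed sign; causes were not tested. With 1 library left out, some calls were lost and others gained. Such a fit leaves a lone library in its group, which is assumed to vary like the others. With 1 library left out, the genes called over the whole table ranged from 79 to 948 for the genotype, 1165 to 4191 in KO2 against WT, 1576 to 4310 in KO1 against WT and 974 to 3155 in KO2 against KO1, and the members called were 0 throughout, 1 to 3, 2 to 6, and 4 to 5 of 7 in the same order of comparisons. The lowest genotype counts came with a WT library left out, 79 without replicate 1 and 99 without replicate 2. Sign changes were met in values that had not been called. For the genotype with 1 library left out, Neat1 ranged from -0.168 to 0.0151, Tug1 from -0.167 to 0.0300 and Snhg1 from -0.187 to 0.0727 (log2). Likewise Snhg12 ranged from -0.30 to 0.17 in KO2 against WT, Lncenc1 from -0.190 to 0.0577 in KO1 against WT and Malat1 from -0.13 to 0.15 in KO2 against KO1. With upper-quartile factors that Malat1 value was -0.0280.

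For the genotype, no filter beyond 1 count called 1752 genes and 1 member, Malat1, and the mean of both clone contrasts called 3226 genes and 3 members. DESeq2 called 1 member, and its count over all genes is not given here. A fit of only the 4 libraries compared called 4065 genes in KO2 against WT. Without replicate 1 of both clones, chosen after seeing the data, the genotype called 559 genes and 0 members, and Snhg12 stood at 0.17 in KO2 against WT, where each clone has 1 library and the spread comes from WT alone. By the longest transcript, the level per kilobase in WT was 14.3 for Tug1, 11.8 for Gas5, 20.8 for Snhg1, 21.9 for Snhg12 and 66.0 for Lncenc1. This puts Snhg12 above Snhg1 and beside Malat1, which had 21.6 ± 3.03 (SD) in WT. In WT replicate 2, Malat1 then had 19.4, below Snhg12 at 23.6 and Snhg1 at 19.8. The order of Malat1 and Snhg1 thus depends on the length used. Neat1 has the same length, 20771 bases, in both settings, so its level by the short isoform was not examined.

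Replicate numbers are not shown to pair libraries. Deviations from the group means of same-numbered libraries correlated across 10635 genes at 0.314 for KO2 with KO1, 0.0784 for KO2 with WT and 0.187 for KO1 with WT. With the replicate block, 646 genes were called for the genotype, 3685 in KO2 against WT, 4410 in KO1 against WT and 3007 in KO2 against KO1, with 0, 2, 6 and 5 members, the added member being Tug1 in KO1 against WT at an adjusted p of 0.0136.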
